A study of Mus musculus with 22 samples.

Results

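The genes that mark blood vessel endothelium were followed as a set of 10 in the stroma of a mouse mammary tumor: Pecam1, Kdr, Flt1, Tek, Tie1, Emcn, Vwf, Eng, Sox17 and Cldn5. They were chosen by symbol, matched to the Ensembl identifiers of the count files, and are 10 of 41388 genes in those files. All 10 were among the 15018 genes that were tested. RNA-seq was run on 22 libraries of stromal cells from C57BL/6 mice at postnatal day 56, all carrying Osx-cre, a doxycycline-repressible Cre driven by the Sp7 (Osx) promoter, and the Ai9 TdTomato (TdT) reporter. Wild type mice were Osx-cre;Ai9 and the others were Cdh2-cKO;Ai9, with 4 wild type and 6 Cdh2-cKO mice inoculated. The tumor is described as a subcutaneous graft of GFP-labeled PyMT-BO1 cells in the study's text and as orthotopic MMTV-BO1 in the sample labels. Stromal cells were separated from GFP+ tumor cells and sorted on TdT and the leukocyte surface protein CD45 into double negative (TdTOSX-CD45-), TdT single positive (TdTOSX+CD45-), CD45 single positive (TdTOSX-CD45+) and double positive (TdTOSX+CD45+) cells. Each population had 3 wild type and 3 Cdh2-cKO libraries, except TdT single positive with 2 and 2, and the labels call the libraries of a group biological replicates. No population was sorted on an endothelial marker, so the endothelial genes were read here as part of mixed populations.

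In build GRCm38, from the positions in the count files, the receptor genes lie at chr5:75932827-75978458 (Kdr, minus strand), chr5:147561604-147726011 (Flt1, minus), chr4:94739289-94874976 (Tek, plus), chr4:118471191-118490061 (Tie1, minus) and chr2:32646595-32682669 (Eng, plus). The others lie at chr11:106654217-106750628 (Pecam1, minus), chr3:137341067-137432185 (Emcn, plus), chr6:125546774-125686679 (Vwf, plus), chr1:4490928-4496413 (Sox17, minus) and chr16:18776847-18778260 (Cldn5, plus). All are protein-coding, and reads were counted over their exons.

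Endothelial cells line vessels and read signals from the tissue through a small set of receptors. VEGF acts through Kdr (VEGFR2), the main signalling receptor, and Flt1 (VEGFR1), which binds VEGF tightly and signals weakly. Angiopoietins act through Tek (Tie2), with Tie1 as its partner receptor, and BMP9 and BMP10 act through Acvrl1 with Eng (endoglin) as co-receptor. Pecam1 (CD31) and Cldn5 are proteins of endothelial contacts, Emcn is a surface sialomucin of capillary and venous endothelium, Vwf is the clotting factor carrier stored in endothelial granules, and Sox17 is a transcription factor of arterial endothelium. Several of them are not exclusive to endothelium: Pecam1 is also carried by platelets and many leukocytes, Vwf by megakaryocytes and platelets, Flt1 and Eng by monocytes and macrophages, and Eng also by mesenchymal cells.

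Counted reads ranged from 16594228 to 26784003 per library. Levels are given as CPM, the reads of a gene scaled to the size of its library with TMM factors, and a difference was called when its adjusted p from edgeR's quasi-likelihood test was at most 0.05. Cdh2, the gene targeted in the Cdh2-cKO mice, was at 6.02, 7.47 and 4.52 CPM in wild type and 12.5, 18.4 and 14.2 CPM in Cdh2-cKO double negative libraries. In TdT single positive cells Cdh2 was at 9.13 and 5.19 CPM in wild type and 17.2 and 13.1 CPM in Cdh2-cKO libraries, and it was at 2.74 CPM or less in the 12 CD45+ libraries. On the CD45- side the level was thus not lower in the libraries labelled Cdh2-cKO, and a count over the whole gene cannot check the deletion of part of it. Ptprc, which encodes CD45, was at 472 to 1821 CPM in CD45+ and 2.45 to 337 CPM in CD45- libraries, and Sp7 did not exceed 0.0669 CPM in any library. The library labelled wild type double negative replicate 3 had the highest summed level of 8 leukocyte markers of any CD45- library, at 9514 CPM, against 231 to 6119 CPM in the other 9. The library labelled wild type CD45 single positive replicate 2 had the highest Ptprc of all and a summed level of 8 macrophage markers of 3800 CPM, against 11551 to 16479 CPM in the other CD45+ libraries. For the endothelial set, calls that change without either library, or without both, are given both ways beside the result. Fitted values include both libraries unless stated otherwise, and some move when either is left out. Without that CD45 single positive library, the log2 difference of Flt1 between double negative and CD45 single positive cells went from 2.44 to 2.96. Without that double negative library, the log2 difference of Tek between TdT single positive and double negative cells went from 0.19 to -0.011.

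The first question was how far endothelial transcripts lay on the CD45- side of the sort. In double negative cells 9 of the 10 genes were higher than in CD45 single positive cells, where 26.1% of all genes tested were called higher. The median log2 difference of the 10 was 4.09, against -0.07 over all genes tested. In TdT single positive cells 8 of the 10 were higher than in double positive cells, where 26.9% of all genes tested were called higher, and the median log2 difference was 2.66 against -0.03. None of the 10 was lower in either comparison. Only genes above 1 CPM in at least 2 libraries were tested. Tek, Tie1, Sox17 and Cldn5 did not exceed 0.512, 0.388, 0.264 and 0.916 CPM in any CD45+ library. They thus passed that filter on the CD45- side alone, and the counts of genes called are not independent of it. Without wild type double negative replicate 3 the same 9 of 10 were called in the first comparison, with log2 differences from 1.82 (Eng) to 6.84 (Tek), and Pecam1 was at 1.49 (adjusted p = 0.0768). Each of these genes is counted over a mixture, so fewer endothelial cells and less RNA per endothelial cell cannot be told apart.

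**Figure D1:**
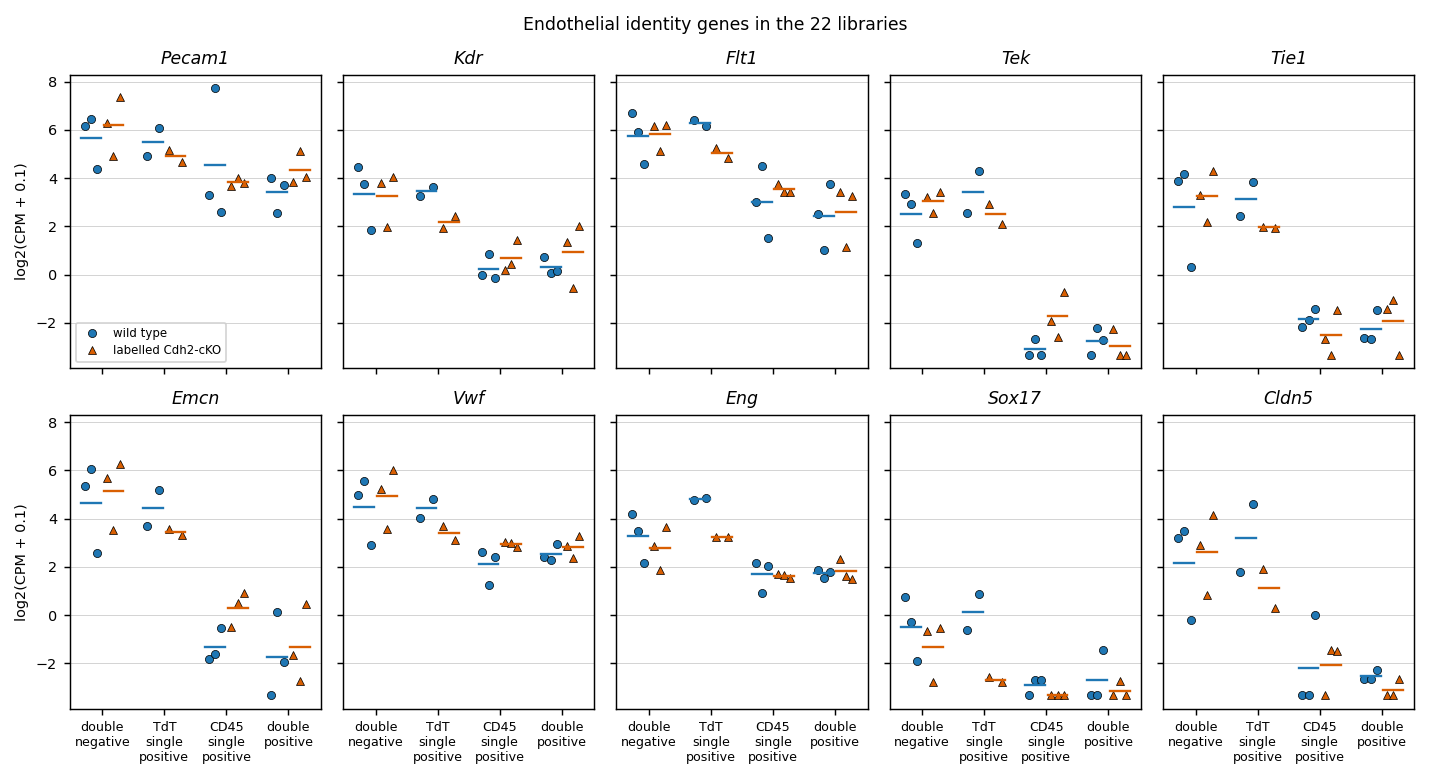
Level of each gene in each library, as log2 of CPM plus 0.1, by sorted population (horizontal axis); circles are wild type, triangles are libraries labelled Cdh2-cKO and lines are group means, and a library without a count sits at the lowest position. Tek, Tie1, Sox17 and Cldn5 lie mostly near the bottom of the axis in CD45+ cells, Emcn and Kdr lie higher with overlapping levels, Pecam1, Flt1, Vwf and Eng lie highest, and a single Pecam1 point, wild type CD45 single positive replicate 2 at 214 CPM, stands above the rest of its population.

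Of the 10 genes Tek, an angiopoietin receptor, had the widest fitted gap in both comparisons with all libraries in. That rank was not firm. Without wild type CD45 single positive replicate 3 the log2 difference of Cldn5 was 7.88 in the first comparison, and Tek did not exceed 7.55 without any 1 library. Tek was at 2.37 to 10.5 CPM in the 6 double negative libraries (median 8.31), and at 0 to 0.512 CPM in the 6 CD45 single positive libraries (median 0.062). In TdT single positive cells Tek was at 5.77 and 19.4 CPM in wild type and 7.51 and 4.19 CPM in Cdh2-cKO libraries, and in double positive cells it did not exceed 0.117 CPM. Over both genotypes, the 10 CD45- libraries held 1881 Tek reads and the 12 CD45+ libraries 18, of which 5 libraries held none, and no CD45+ library reached the lowest CD45- one. The fitted log2 difference was 6.55 ± 0.70 (SE) for double negative against CD45 single positive (adjusted p = 1.44e-06) and 7.37 ± 0.74 for TdT single positive against double positive (adjusted p = 4.89e-07). Its partner Tie1 was at 1.16 to 19.6 CPM in double negative cells (median 12.1) and at 0 to 0.269 CPM in CD45 single positive cells. Tie1 in TdT single positive cells was at 5.31 and 14.3 CPM in wild type and 3.84 and 3.74 CPM in Cdh2-cKO libraries, and in double positive cells it was at 0 to 0.388 CPM. The 2 sides did not overlap for Tie1 either, and the fitted log2 differences were 6.27 ± 0.80 (adjusted p = 8.63e-06) and 5.09 ± 0.78 (adjusted p = 5.95e-05).

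The VEGF receptors were also higher in CD45- cells, by less, and reads of both were present in every CD45+ library. Kdr was at 3.52 to 21.7 CPM in double negative cells (median 13.5) and at 0.808 to 2.63 CPM in CD45 single positive cells (median 1.16). Among TdT single positive libraries Kdr was at 9.49 and 12.5 CPM in wild type and 3.74 and 5.29 CPM in Cdh2-cKO libraries, and in double positive cells it was at 0.582 to 3.97 CPM. The double negative and CD45 single positive libraries did not overlap, and 1 double positive library lay above the lowest TdT single positive one. The log2 differences were 3.13 ± 0.51 (adjusted p = 8.58e-05) and 2.10 ± 0.52 (adjusted p = 0.00358). Flt1 was at 23.7 to 104 CPM in double negative cells (median 65.6), at 84.1 and 72.3 CPM in wild type and 38.3 and 28.6 CPM in Cdh2-cKO TdT single positive libraries, at 2.80 to 22.3 CPM in CD45 single positive cells and at 1.93 to 13.5 CPM in double positive cells. No CD45+ library reached the lowest CD45- one, although the gap between 22.3 and 23.7 CPM was small, and the log2 differences were 2.44 ± 0.54 (adjusted p = 0.00117) and 2.82 ± 0.58 (adjusted p = 0.000855).

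Eng, the BMP co-receptor, had one of the smallest differences between double negative and CD45 single positive cells. It was at 3.54 to 18.3 CPM in double negative cells (median 9.15) and at 1.78 to 4.33 CPM in CD45 single positive cells (median 3.13), and these overlapped. In TdT single positive cells Eng was at 27.3 and 29.3 CPM in wild type and 9.32 and 9.25 CPM in Cdh2-cKO libraries, against 2.71 to 4.97 CPM in double positive cells, without overlap. The log2 differences were 1.55 ± 0.34 (adjusted p = 0.00105) and 2.26 ± 0.37 (adjusted p = 9.78e-05).

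Of the genes of endothelial surface and contacts, Emcn and Cldn5 were low in CD45+ cells, at up to 1.79 and 0.916 CPM, and Pecam1 was not. Emcn was at 5.84 to 77.3 CPM in double negative cells (median 45.9) and at 0.180 to 1.79 CPM in CD45 single positive cells. It was at 12.9 and 36.5 CPM in wild type and 11.7 and 10.02 CPM in Cdh2-cKO TdT single positive libraries, and at 0 to 1.26 CPM in double positive cells. The 2 sides were apart in both pairs, with log2 differences of 6.00 ± 0.83 (adjusted p = 2.03e-05) and 5.22 ± 0.84 (adjusted p = 0.000104). Cldn5, the claudin of tight endothelial barriers, was at 0.771 to 17.5 CPM in double negative cells, and at 3.37 and 24.4 CPM in wild type and 3.67 and 1.14 CPM in Cdh2-cKO TdT single positive libraries. In CD45+ cells it had 30 reads in all, 17 of them in wild type CD45 single positive replicate 3 (0.916 CPM), which therefore overlapped the lowest double negative library. The log2 differences for Cldn5 were 5.06 ± 0.99 (adjusted p = 0.000446) and 7.01 ± 1.23 (adjusted p = 0.000217), the second against 5 reads in 6 double positive libraries. Without wild type CD45 single positive replicate 3 the first was 7.88 (adjusted p = 0.000185).

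Pecam1 was the gene that did not separate. In double negative cells it was at 70.5, 87.8 and 20.8 CPM in wild type and 78.2, 30.3 and 164 CPM in Cdh2-cKO libraries. In CD45 single positive cells it was at 9.81, 214 and 5.87 CPM in wild type and 12.7, 15.99 and 13.8 CPM in Cdh2-cKO libraries. The highest Pecam1 level of all 22 libraries was thus in a CD45+ one, replicate 2 of the wild type CD45 single positive cells. The log2 difference was 1.16 ± 0.68 (adjusted p = 0.164), and without that library it was 2.80 (adjusted p = 0.000199). In that same library Icam2, an adhesion protein of endothelium and leukocytes, was at 95.8 CPM and S1pr1, a sphingosine phosphate receptor of endothelium and lymphocytes, at 162 CPM, whereas Tek was at 0.0573, Tie1 at 0.172 and Cldn5 at 0 CPM. Macrophage markers were lowest there, as given above, and the part of the library's cell make-up in the Pecam1 level was not tested. Between TdT single positive cells (30.1 and 66.8 CPM in wild type, 36.2 and 25.02 CPM in Cdh2-cKO) and double positive cells (5.79 to 35.3 CPM) the log2 difference of Pecam1 was 1.27 ± 0.74 (adjusted p = 0.168). Without wild type CD45 single positive replicate 2, which enters the shared estimate of spread, it was 1.27 with an adjusted p of 0.0286, so the call for Pecam1 depended on 1 library in both comparisons. The voomWithQualityWeights test, which gives outlying libraries less weight, called Pecam1 higher in both (2.55 and 1.38, adjusted p = 0.000124 and 0.0488).

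Vwf was at 7.38 to 64.7 CPM in double negative cells (median 34.4) and at 2.29 to 8.02 CPM in CD45 single positive cells (median 6.56), with the lowest double negative library inside the CD45+ range. Its log2 difference was 2.48 ± 0.43 (adjusted p = 0.00016). TdT single positive libraries had Vwf at 16.4 and 28.3 CPM in wild type and 12.9 and 8.66 CPM in Cdh2-cKO libraries, against 4.80 to 9.74 CPM in double positive cells. The log2 difference there was 1.24 ± 0.45 (adjusted p = 0.0307), which was called in 16 of 22 fits that left out a library. The 6 libraries whose omission ended the call were TdT single positive wild type replicate 2 (adjusted p = 0.111) and Cdh2-cKO replicate 1 (0.097), and double positive wild type replicates 1 (0.057) and 2 (0.0623) and Cdh2-cKO replicates 1 (0.0529) and 2 (0.0671). It was also not called by voomWithQualityWeights (0.0636), with no filter on low counts (0.0575), with wild type libraries alone (0.0626) or with Cdh2-cKO libraries alone (0.404). Of 7 megakaryocyte and platelet markers, Gp9 (at most 0.166 CPM), Gp5 (at most 0.0601 CPM) and Gp1bb (at most 0.0528 CPM) were at or near 0 in the 12 CD45+ libraries. Pf4, a platelet chemokine that macrophages also make, was at 278 to 1633 CPM there, and the 7 summed to 284 to 1650 CPM in CD45 single positive and 770.003 to 1322 CPM in double positive cells against 10.3 to 674 CPM in double negative and 13.1 to 404 CPM in TdT single positive cells. Of the 7, 4 were abundant enough to test, and 1 was called higher and 2 lower in double negative than in CD45 single positive cells. The counts were the same for TdT single positive against double positive cells. Over all 15018 genes tested, 3924 were higher and 4114 lower in the first comparison, and 4046 and 3408 in the second. The part of these markers in the Vwf reads of CD45+ cells was not tested.

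Sox17 was the least abundant of the 10. It exceeded 1 CPM only in wild type double negative replicate 1 (1.61 CPM) and wild type TdT single positive replicate 2 (1.74 CPM). Its 136 reads in the 10 CD45- libraries gave 0.0485 to 1.61 CPM in double negative cells, and 0.561 and 1.74 CPM in wild type against 0.0685 and 0.0456 CPM in Cdh2-cKO TdT single positive libraries. The 12 CD45+ libraries held 8 reads, 5 of them in wild type double positive replicate 3, and 8 libraries held none. In the 6 CD45 single positive libraries 2 reads stood against 77 in double negative cells, a ratio of 31.7 per scaled read, with an exact 95% interval of 8.49 to 267 that covers counting error only. The fitted log2 difference was 5.10 ± 1.16 (adjusted p = 0.00181). For TdT single positive against double positive cells it was 2.49 ± 1.17 (adjusted p = 0.088). Without wild type double positive replicate 3 it was 4.46 (adjusted p = 0.0172). The voomWithQualityWeights test also called Sox17 higher there (2.37, adjusted p = 0.0358).

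**Figure D2:**
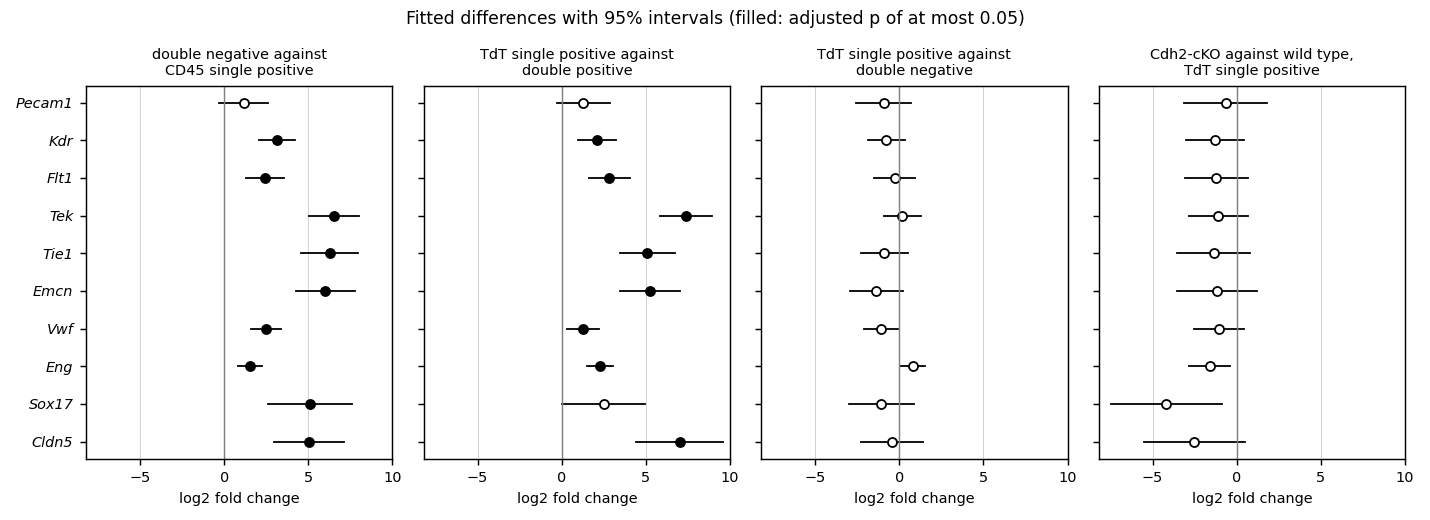
Fitted log2 fold change of each gene (horizontal axis) in 4 comparisons, with 95% intervals; filled points had an adjusted p of at most 0.05. Filled points lie right of 0 for 9 genes in the first panel and 8 in the second, and no point is filled in the other panels, where 8 and 10 of the 10 points lie left of 0.

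The CD45+ level was also set against the CD45- level for each gene. The mean in CD45 single positive cells was 1.296% of that in double negative cells for Tie1, 1.76% for Tek, 1.87% for Emcn, 3.03% for Cldn5 and 3.05% for Sox17. It was 11.6% for Kdr, 18.3% for Vwf, 18.5% for Flt1, 33.7% for Eng and 60.3% for Pecam1. The Pecam1 share rested on wild type CD45 single positive replicate 2 and was 15.5% without it. The shares just given for the other genes include that library, so they are not ranked against this value. Single libraries also moved the low shares: Tek was at 0.763% without Cdh2-cKO CD45 single positive replicate 3, Cldn5 at 1.32% without wild type replicate 3, and Sox17 at 1.77% and 1.88% without wild type replicates 2 and 3. The same share in double positive against TdT single positive cells was 0.506% for Tek, 0.581% for Cldn5, 2.52% for Emcn, 2.57% for Tie1 and 8.61% for Sox17, and 12.9% for Flt1, 18.0% for Eng, 22.5% for Kdr, 39.9% for Vwf and 42.5% for Pecam1. Without wild type TdT single positive replicate 2 these shares were 0.802% for Tek, 1.73% for Cldn5, 3.88% for Emcn, 4.06% for Tie1 and 23.1% for Sox17. Sox17 was at 1.605% without wild type double positive replicate 3, and Emcn at 1.5999% without Cdh2-cKO double positive replicate 3. Of 8 fibroblast markers, genes of collagen-producing cells, the shares ran from 0.874% to 8.47% (median 1.09%) and from 0.234% to 3.38% (median 0.299%). Within the CD45+ side the TdT label made no called difference. Of the 10 genes 0 were called between double positive and CD45 single positive cells, where 0.00666% of all genes tested were. None had an unadjusted p under 0.05, against 603 of all 15018 genes tested. Whether the CD45 difference itself depended on TdT was tested as an interaction, which called 0 of the 10 and 0.00666% of all genes tested. Again no gene of the set had an unadjusted p under 0.05, against 1433 of all genes tested. DESeq2 and voomWithQualityWeights also called 0 of the 10 in both.

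Per kilobase of exon, Pecam1 had the highest mean level in double negative cells, at 12.1 ± 8.19 CPM per kilobase (SD, n = 6). Emcn followed at 7.80 ± 5.34, Cldn5 at 5.59 ± 4.40 and Flt1 at 5.30 ± 2.51 CPM per kilobase. Eng (2.45 ± 1.445), Tie1 (2.28 ± 1.51), Vwf (2.07 ± 1.35), Kdr (1.66 ± 0.98) and Tek (1.61 ± 0.661) were lower, and Sox17 was lowest at 0.193 ± 0.175 CPM per kilobase. The ranges of each neighbouring pair in this order overlapped. Pecam1 was, in TdT single positive cells, again first (6.35 ± 3.01, n = 4), with Cldn5 (5.75 ± 7.70), Eng (4.85 ± 2.84) and Flt1 (4.82 ± 2.29) next, and Sox17 last. In both CD45+ populations the 5 highest per kilobase were Pecam1, Flt1, Eng, Vwf and Kdr.

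A second question was whether the Osx-cre-labelled CD45- cells, in which Osx-cre is known to mark cells of the osteoblast and mesenchymal lineage, lacked endothelial transcripts. All 10 genes had reads in each of the 4 libraries of this population, at the levels given above. Of the 10 genes 0 were called between TdT single positive and double negative cells, where 1.96% of all genes tested were called in either direction. DESeq2 and voomWithQualityWeights also called 0 of the 10. In edgeR's test 2 genes of the set had an unadjusted p under 0.05, as did 2850 of all 15018 genes tested. The first was Vwf, with a log2 difference of -1.08 ± 0.47 (adjusted p = 0.222, 95% interval -2.07 to -0.10). The second, in the other direction, was Eng at 0.80 ± 0.36 (adjusted p = 0.241, 95% interval 0.04 to 1.55). For the remaining 8 the log2 difference ran from -1.36 ± 0.75 for Emcn to 0.19 ± 0.53 for Tek, with 95% intervals that reached from -2.93 to 0.22 for Emcn and from -0.93 to 1.31 for Tek. The median of the 10 was -0.83 and that of all genes tested 0.07. The intervals do not show that the populations were alike. Vwf was called lower in TdT single positive cells when both libraries that stood apart were left out (log2 difference -1.31, adjusted p = 0.0365). Markers of fibroblasts summed to 13779 to 59849 CPM in TdT single positive and 4286 to 32303 CPM in double negative cells, and 8 pericyte and smooth muscle markers to 904 to 3448 and 259 to 1837 CPM; their part in the values was not tested.

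The endothelial genes varied together from library to library on the CD45- side. Over the 10 CD45- libraries the 36 pairs of genes that leave out Eng had correlations of log2 CPM from 0.66 to 0.99 (median 0.83), while the 9 pairs with Eng ran from 0.36 to 0.74 (median 0.62). These libraries share 2 populations and 2 genotypes, so the values are a description. Wild type double negative replicate 3 was lowest of the 10 libraries for 8 of the 10 genes and lowest of its 3 for all 10. The summed level of the set there was 70.0 CPM, against 322 and 323 CPM in the other wild type double negative libraries, and its leukocyte markers were highest, as given above. Cdh2-cKO double negative replicate 2 was also lowest of its 3 for all 10 genes, with a summed level of 108 CPM against 286 and 457 CPM. In that library, however, the leukocyte markers summed to 450 CPM, close to the 436 and 520 CPM of the others. The highest library was Cdh2-cKO double negative replicate 3 for Pecam1, Tie1, Emcn and Vwf, wild type TdT single positive replicate 2 for Tek, Eng, Sox17 and Cldn5, and wild type double negative replicate 1 for Kdr and Flt1. The part of leukocyte content in these levels was not tested.

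**Figure D3:**
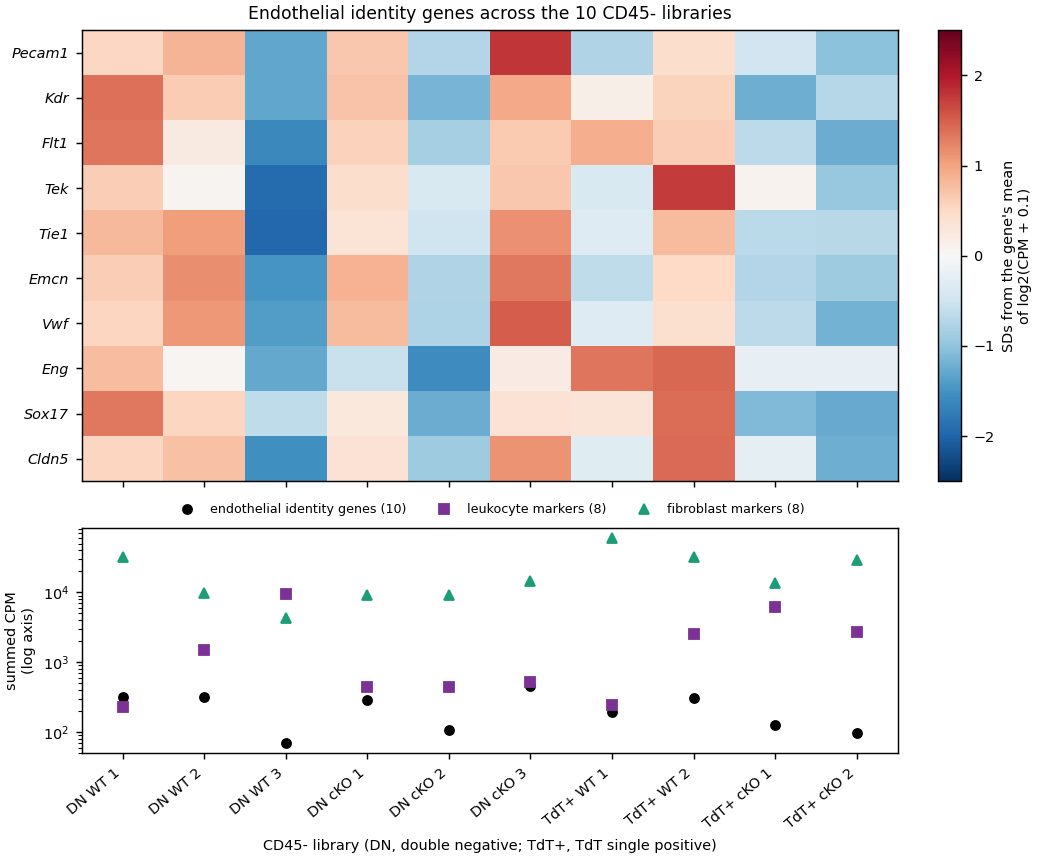
Top, level of each gene in the 10 CD45- libraries as SDs from its own mean of log2(CPM + 0.1), red above and blue below; bottom, summed CPM on a log axis of the 10 endothelial genes, 8 leukocyte markers and 8 fibroblast markers in the same libraries. The set is lowest in wild type double negative replicate 3, at 70.0 CPM, where the leukocyte markers are highest at 9514 CPM, and low as well in Cdh2-cKO double negative replicate 2, at 108 CPM, where they are at 450 CPM.

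The genes most like the set were sought among 13029 genes with a mean of at least 1 CPM in these 10 libraries, by Pearson correlation with the mean of the standardized levels. The 10 nearest were Crim1 (r = 0.97), Dll4 (0.97), Cdh5 (0.96), Sema3f (0.96), Ramp2 (0.96), Tmem255a (0.96), Egfl7 (0.96), Palmd (0.95), Arid5b (0.94) and Gimap4 (0.94). Cdh5, or VE-cadherin, and Egfl7, a secreted vessel protein, belong to the list of other endothelial genes described next, and Dll4 is the Notch ligand of tip and arterial cells. Of the set itself, Cldn5 (0.96), Tie1 (0.94) and Kdr (0.93) were closest to the mean of the other 9, and Eng was farthest at 0.62.

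Promoter sequence was available for 7 of the 10, as the bases before the start site in RefSeq, build GRCm38.p6. The 250 bases before the start of 3 genes are shown. These genes were called in both CD45 comparisons and stand for 3 patterns. Emcn had few reads in CD45+ cells, Flt1 was present there at a lower level than in CD45- cells, and Eng was least like the rest. Capitals mark AGGAAG or its reverse complement, the core letters bound by ETS factors such as Erg and Fli1.
Emcn: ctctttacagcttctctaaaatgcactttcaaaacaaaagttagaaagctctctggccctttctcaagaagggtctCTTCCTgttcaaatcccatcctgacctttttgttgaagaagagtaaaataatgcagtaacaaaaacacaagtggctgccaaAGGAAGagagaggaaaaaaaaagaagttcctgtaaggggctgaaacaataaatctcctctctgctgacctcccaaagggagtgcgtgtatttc
Flt1: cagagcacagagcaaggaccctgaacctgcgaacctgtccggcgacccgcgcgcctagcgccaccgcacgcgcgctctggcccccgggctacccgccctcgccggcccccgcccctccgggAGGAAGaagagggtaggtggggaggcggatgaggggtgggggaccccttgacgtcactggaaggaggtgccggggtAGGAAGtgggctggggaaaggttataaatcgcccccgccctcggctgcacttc
Eng: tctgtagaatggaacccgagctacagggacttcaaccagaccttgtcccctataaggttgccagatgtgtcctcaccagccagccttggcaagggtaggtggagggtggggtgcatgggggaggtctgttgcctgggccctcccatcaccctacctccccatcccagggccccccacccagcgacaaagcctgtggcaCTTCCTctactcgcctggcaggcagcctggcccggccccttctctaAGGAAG
Each is written 5′ to 3′ on the strand of the gene. Emcn lies at chr3:137340828-137341077 (plus strand), Flt1 at chr5:147726012-147726261 (minus strand) and Eng at chr2:32646345-32646594 (plus strand).

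On both strands, AGGAAG was found in the 250 bases of 4 of the 7 genes (Emcn, Flt1, Eng and Tie1), and in 29.5% of 32851 promoters of the same length. Emcn, Flt1 and Eng held 2 matches each, and Tie1 held 1. The Eng matches ended 1 and 47 bases before the start, the Flt1 matches 48 and 124 bases, and the Emcn matches 88 and 169 bases. ACAAAG, a core bound by SOX factors, was found in Eng and Tek and in 16.5% of all promoters. TATAAA was found in Flt1 alone and in 12.4% of all promoters. The letters AGATAA, bound by GATA factors, were in none of the 7 and in 9.99% of all promoters. Kdr and Cldn5 held none of these letters in the window. Matches that overlap were counted separately, and a match is a run of letters and not a measured binding site.

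Most other endothelial genes differed across the CD45 sort in the same direction as the 10. Of 24 further endothelial genes, 19 were higher and 2 lower in double negative than in CD45 single positive cells. The median log2 difference was 4.79. In TdT single positive against double positive cells 19 were higher and 1 lower, with a median of 3.89. Over all 15018 genes tested, 3924 were higher and 4114 lower in the first comparison, and 4046 and 3408 in the second. As for the 10, a gene could pass the filter on low counts through either side of the sort alone. Cdh5 was 4.42 ± 0.56 and 3.30 ± 0.56 higher on the log2 scale (adjusted p = 7.78e-06 and 0.000164). Erg, the ETS factor of mature endothelium, was 5.76 ± 0.81 and 3.79 ± 0.97 higher (adjusted p = 2.14e-05 and 0.00423). Sox18, a relative of Sox17, was 4.61 ± 0.75 and 3.84 ± 0.87 higher (adjusted p = 8.38e-05 and 0.0018). Plvap, the diaphragm protein of fenestrated vessels, was 5.70 ± 0.79 and 4.93 ± 0.79 higher (adjusted p = 2.10e-05 and 8.76e-05). Egfl7 (5.34 ± 0.58 and 5.22 ± 0.61) and Ptprb, the phosphatase that restrains Tek (5.77 ± 0.71 and 4.83 ± 0.70), were higher too. The genes that went the other way were Fli1, an ETS factor of blood as well as vessel cells (-2.88 ± 0.42 and -2.41 ± 0.48), and Tal1 (-2.35 ± 0.83, in the first comparison). None of the 24 was called between TdT single positive and double negative cells, where 1.96% of all genes tested were called. Erg had a log2 difference there of -2.79 ± 0.76 (adjusted p = 0.0614).

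Genes of endothelial subtypes and of the receptors' partners were more mixed. Over all 15018 genes tested, 3924 were higher and 4114 lower in the first CD45 comparison, and 4046 and 3408 in the second. Of 15 arterial, venous and tip cell genes, 12 were higher and 1 was lower in double negative than in CD45 single positive cells. In TdT single positive against double positive cells 10 of the 15 were higher and 1 lower. The lower one was in both cases Acvrl1, the type I receptor that works with Eng, at 10.2 to 40.3 CPM in CD45- and 37.9 to 72.2 CPM in CD45+ libraries (log2 difference -1.46 ± 0.26 and -0.83 ± 0.29, adjusted p = 0.000172 and 0.0247). Eng and Acvrl1 thus differed in opposite directions across the CD45 sort. Nrp1, a VEGF co-receptor, was abundant on both sides (98.7 to 352 and 66.1 to 298 CPM) and was not called in either comparison (log2 difference -0.21 ± 0.26 and 0.32 ± 0.29, adjusted p = 0.533 and 0.385). The lymphatic regulator Prox1 did not exceed 0.5259 CPM in any library, and Pdpn and Ccl21a had no counts. Ccl21a has 2 Ensembl identifiers, the first of which was read here, and only unique reads were counted. Why these counts were 0 was not tested, and they are not read as absence of expression. Flt4, the VEGFR3 receptor of lymphatic and of some blood vessel endothelium, was at 1.55 to 14.2 CPM in CD45- and 0 to 0.602 CPM in CD45+ libraries and was higher in both comparisons (log2 difference 5.87 ± 0.87 and 3.97 ± 0.80, adjusted p = 3.72e-05 and 0.000749). Lyve1, which macrophages also carry, was at 1.31 to 68.0 CPM in CD45+ and 0.592 to 37.9 CPM in CD45- libraries.

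Of the 9 ligand genes listed for these receptors, 7 were abundant enough to test. Of these 5 were higher in double negative than in CD45 single positive cells and 4 in TdT single positive than in double positive cells. Over all genes tested, 26.1% and 26.9% were called higher in these comparisons. Angpt2, the Tek ligand made by activated endothelium, was higher in both (2.54 ± 0.50 and 1.80 ± 0.52, adjusted p = 0.000471 and 0.00966). Vegfa was not called (0.70 ± 0.39 and 0.75 ± 0.43, adjusted p = 0.143 and 0.156), nor was the Flt1 ligand Pgf (1.52 ± 0.66 and 1.17 ± 0.71, adjusted p = 0.0607 and 0.183). Gdf2 (BMP9) and Bmp10, the ligands read by Eng, had a count in 1 library each.

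The last question was whether the Cdh2-cKO label changed the endothelial genes within a population. Of the 10 genes 0 were called in double negative cells (0% of all genes tested), 0 in TdT single positive cells (0.00666%), 0 in CD45 single positive cells (0%) and 0 in double positive cells (0%). DESeq2 and voomWithQualityWeights called 0 of the 10 in all 4 as well. At an unadjusted p under 0.05 edgeR's test gave 0, 2, 2 and 0 genes of the set. Over all 15018 genes tested it gave 1443, 1552, 1467 and 502. In TdT single positive cells the log2 difference of all 10 genes was below 0, from -4.18 to -0.66, with a median of -1.25 against -0.003 for all genes tested. The 2 genes under 0.05 there were Eng (-1.61 ± 0.58, adjusted p = 0.388) and Sox17 (-4.18 ± 1.54, adjusted p = 0.404). The wild type and Cdh2-cKO levels of Eng are given above and do not overlap. Sox17 rested on 59 reads and passed the filter on low counts through wild type libraries alone. Cldn5 was at -2.52 ± 1.42 (adjusted p = 0.554), and the differences for Tie1 (-1.37), Kdr (-1.28), Flt1 (-1.22), Emcn (-1.19), Tek (-1.10), Vwf (-1.05) and Pecam1 (-0.66) had adjusted p-values of 0.596 to 0.867. With 2 libraries a side, wild type and Cdh2-cKO did not overlap for 7 of the 10. Over all genes tested the same held for 6328 of 15018. Without wild type TdT single positive replicate 2 the differences of Pecam1 and Tek were 0.025 and 0.020. Leukocyte markers summed to 243 and 2547 CPM in the wild type and 6119 and 2744 CPM in the Cdh2-cKO libraries of this population. Markers of fibroblasts summed to 59849 and 32162 CPM in wild type and 13779 and 28650.5 CPM in Cdh2-cKO libraries, and 8 pericyte and smooth muscle markers to 3448 and 2628 CPM against 904 and 1894 CPM. The log2 differences of all 8 fibroblast markers (median -1.15) and all 8 pericyte and smooth muscle markers (median -1.88) were below 0 as well, with 0 of either list called and 1 and 5 at an unadjusted p under 0.05. The part of these cell types in the values of the 10 genes was not tested.

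In double negative cells the log2 differences between genotypes ran from -1.10 to 0.61 (median 0.16). These include wild type replicate 3, the lowest of its 3 libraries for all 10 genes. Whether the genotype difference depended on the TdT label was tested directly as an interaction. It called 0 of the 10 and 0.00666% of all genes tested with edgeR, and 0 of the 10 with DESeq2 and with voomWithQualityWeights. In edgeR's test none of the 10 had an unadjusted p under 0.05 (adjusted p 0.687 to 0.887), against 1504 of all 15018 genes tested. The genotype differences of the CD45+ populations ran from -2.78 to 3.32 in CD45 single positive and from -2.02 to 0.99 in double positive cells, where several of the genes had few or no reads.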

How the data were processed

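The genes and lists were chosen with earlier results of these data known. The authors made libraries from sorted cells with the SMARTer kit, sequenced them, aligned reads with STAR 2.0.4b to GRCm38 and deposited raw counts per Ensembl gene from featureCounts (version 1.45 in the processing notes), unique reads only. The strand setting is not given in the sources used here, so reads of overlapping genes on opposite strands cannot be told apart. Gene names came from GENCODE vM21, which named 40340 of 41388 genes, and exon lengths came from the count files. Ribosomal RNA genes (355) were left out, and 15018 genes above 1 CPM in at least 2 libraries were tested with edgeR 4.0.16 (R 4.3.3; TMM factors, robust quasi-likelihood fit of 8 group means over all 22 libraries, Benjamini-Hochberg adjustment over all genes, threshold 0.05, no fold threshold). The study's methods used limma's voomWithQualityWeights, which was run here as an alternative (limma 3.58.1), as were DESeq2 1.42.0, RLE factors, no filter, a log2 fold change of at least 2, a replicate block, each genotype alone and leaving out each library. Deviations from the group means correlated in 4 of 4 same-numbered pairs of TdT single positive and double negative libraries (r = 0.11 to 0.59). With 2 TdT single positive libraries per genotype these deviations mirror each other, so the pairs are not independent. Wild type TdT single positive replicate 2 correlated more with double negative replicate 3 (0.43) than with replicate 2 (0.22). The labels give no pairing, and these values do not establish one. The replicate block changed no call of the 10 genes between these populations. The fit was tested on simulated data. Counting intervals cover counting error only, and no pair of libraries agreed within sampling noise. Named genes were the 10 members, 13 genes of the related lists, the 10 nearest in pattern, and Ptprc, Sp7 and Cdh2; Icam2, S1pr1, Flt4, Fli1, Tal1, Gp9, Gp5, Gp1bb, Pf4, Pdpn, Ccl21a, Gdf2, Bmp10 and the marker sums were added after their values were seen. One marker gene is not reported here.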

Additional observations from a re-analysis of the deposited data

Results flagged for a closer look

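The gap between the highest or lowest library and its nearest neighbour was compared with the range of the population, over both genotypes, for the 10 genes in the 4 populations. Of 40 such sets 8 had a gap above Dixon's 95% limit. That limit is made for independent, normally distributed values. It was applied here to untransformed CPM of genes that vary together, so the count is a description. Pecam1 was at 214 CPM in wild type CD45 single positive replicate 2, against 15.99 CPM in the next library, and at 35.3 CPM in Cdh2-cKO double positive replicate 2. Wild type TdT single positive replicate 2 accounted for 3 of the 8, with Emcn at 36.5 CPM, Tie1 at 14.3 CPM and Cldn5 at 24.4 CPM, against 12.9, 5.31 and 3.67 CPM in the next library. Cldn5 in wild type CD45 single positive replicate 3 was at 0.916 CPM (17 reads), Tek in Cdh2-cKO CD45 single positive replicate 3 at 0.512 CPM (8 reads) and Sox17 in wild type double positive replicate 3 at 0.264 CPM (5 reads). Their causes were not tested.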

How the results depend on the processing

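In all alternatives run, the count of endothelial genes called stayed within 1.5 times the reported one, except between TdT single positive and double negative cells, where leaving out wild type CD45 single positive replicate 2 and wild type double negative replicate 3 together, an alternative chosen after seeing the data, gave 1 (Vwf) in place of 0. With wild type libraries alone 6 of the 10 were called between double negative and CD45 single positive cells, without Flt1, Sox17 and Cldn5, and with Cdh2-cKO libraries alone Kdr was not called between TdT single positive and double positive cells (1.01, adjusted p = 0.294). With wild type libraries alone the log2 difference of Pecam1 between double negative and CD45 single positive cells was -0.36, and that of 3 genes between TdT single positive and double negative cells was positive: Flt1 0.32, Sox17 0.46 and Cldn5 0.99. Tek in that comparison was -0.55 with Cdh2-cKO libraries alone and -0.0098 without the 2 libraries. Leaving out 1 library at a time it ranged from -0.37 to 0.50 for Tek, from -0.46 to 0.028 for Flt1 and from -1.46 to 0.044 for Cldn5. For the genotype difference in TdT single positive cells the range was -1.13 to 0.025 for Pecam1 and -1.73 to 0.020 for Tek. The cause of these changes was not tested. In the 6 comparisons for which single values are not given, 92 of 1706 values changed sign and none was called. Calls over all genes between TdT single positive and double negative cells numbered 295, against 982 with DESeq2, 718 with voomWithQualityWeights and 1492 without the 2 libraries; DESeq2 gave 522 and 558 for the genotype difference in double negative cells and its interaction with TdT, against 0 and 1. In the other pairs of populations a smaller share of same-numbered libraries correlated over 0.1. It was 0 of 6 pairs between double negative and CD45 single positive cells. It was 3 of 4 between TdT single positive and double positive cells and 2 of 6 between double positive and CD45 single positive cells. A fit with a replicate block called the same 9 genes between double negative and CD45 single positive cells. That fit called the same 8 between TdT single positive and double positive cells, and 0 in the other comparisons. Sox17 fell below the filter in 2 of the fits without a library and with Cdh2-cKO libraries alone.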
